A study of Mus musculus with 19 samples.

Results

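The genes that encode secreted and membrane-bound axon guidance molecules and their receptors were followed through the depth of the adult mouse neocortex. The group holds 56 genes taken by symbol, of 24130 Ensembl genes listed: semaphorins, ephrins, Slits and netrins (29 ligands), and plexins, neuropilins, Eph receptors, Robo, Unc5 and Dcc genes (27 receptors). The rule takes symbols and no expression value, although the members were chosen with earlier results of these data known. All 56 were listed in each of the 7 libraries. The tissue was primary somatosensory cortex (S1) of 8 male C57BL/6 mice aged 56 days, from 2 litters of 4, with no treatment and no altered gene. It was cut into 6 adjacent segments, in which A held mostly layers 1 to 3, B layer 4, C and D layer 5 (C being the more superficial), E layer 6 and F layer 6b. Segments A and C to F each gave 1 library of polyadenylated RNA pooled from the 8 mice, while B gave a library per litter, B1 and B2, each from 4 mice. The segments came from the same animals, so that they are not independent, and B1 and B2 are the only replicates (n = 2).

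Guidance molecules act in pairs. Semaphorins are bound by plexins, for most class 3 members together with a neuropilin, ephrins by Eph receptors in contact between cells, Slits by Robo receptors, and netrin 1 by Dcc, which mediates attraction, or by Unc5 receptors, which mediate repulsion. The families steer growing axons in the embryo, and in the adult cortex they are also present at synapses and in glia.

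Expression was measured in FPKM, the fragments per kilobase of gene model scaled to the mapped fragments of the library, each with a 95% interval that covers the estimate within a library and not the variation between mice. Estimated depth ran from 31.3 M fragments for A to 74.9 M for B2. The 10 layer markers followed the labels in part. Rorb was highest in B (17.8 and 22.1 FPKM), and Fezf2 (26.0) and Etv1 (7.60) were highest in C. Ctgf (167), Nxph4 (41.3) and Cplx3 (164) were highest in F. Cux2 was at 37.9 in A and 2.82 in F, but at 43.5 in B1. Foxp2, which was not classifiable, was at 13.2 in E and 13.9 in F, and Tle4 at 35.03 and 39.8. Bcl11b was at 14.5 in D, 17.7 in E and 19.5 in F. These last 3 genes thus did not set E clearly apart from F. Library A stood apart in its summed leptomeningeal markers (12.8 FPKM, against 1.62 to 2.65 in the others, with Col3a1 under 0.4 in every library). Of these 5 markers 0 were classifiable, and Lum was not raised in A (0.164, against 0.155 to 0.285 in the others). The share of mitochondrial transcripts was 21.8% in A against 5.03% in F, and the replicates of layer 4 differed, with 7.76% in B1 and 18.2% in B2. The summed FPKM of 7 oligodendrocyte markers was 261 in A and 9904 in F. The part of these differences in the results on A and F was not tested beyond the values given beside them, and in bulk tissue fewer cells of a type and less RNA per cell cannot be told apart.

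The 56 genes ranged from a mean of 0.584 FPKM for Sema3d to 81.6 for Sema7a, with a median of 6.51. For 39 of them the widest interval spanned at most 50% of the mean FPKM, and these are called classifiable, as are 11409 genes in all. Of the 56, 20 were highest in F, 10 in E, 5 in D, 9 in C, 7 in B and 5 in A. The share with its maximum in F was 35.7%, against 31.9% of all classifiable genes. The share with its maximum in A was 8.93%, against 20.9%. These sets are unlike, since 17 of the 56 were not classifiable. Among the 17 were Sema3d, Sema4d, Sema5b, Plxnb3, Nrp2, Epha5, Efna1, Ntn1, Unc5b and Dcc, all highest in F. Sema6c, Plxna3 and Plxnb2, highest in A, were also among them. Of the 39 classifiable members, Sema4a, Sema5a, Sema6a, Sema6d, Plxnb1, Epha3, Epha7, Ephb1, Efnb1 and Efnb3 were highest in F. Among these 39 the share with its maximum in F was thus not above that of all classifiable genes. The medians that follow take all ligands and receptors, classifiable or not. Ligands and receptors had like median profiles, with a median centre of depth (the mean segment position weighted by the share of FPKM, from A = 1 to F = 6) of 3.70 for ligands and 3.78 for receptors, against 3.68 for classifiable genes. Single genes were spread widely around these medians, from Plxnd1 at 2.55 to Sema5b at 5.04.

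**Figure D1:**
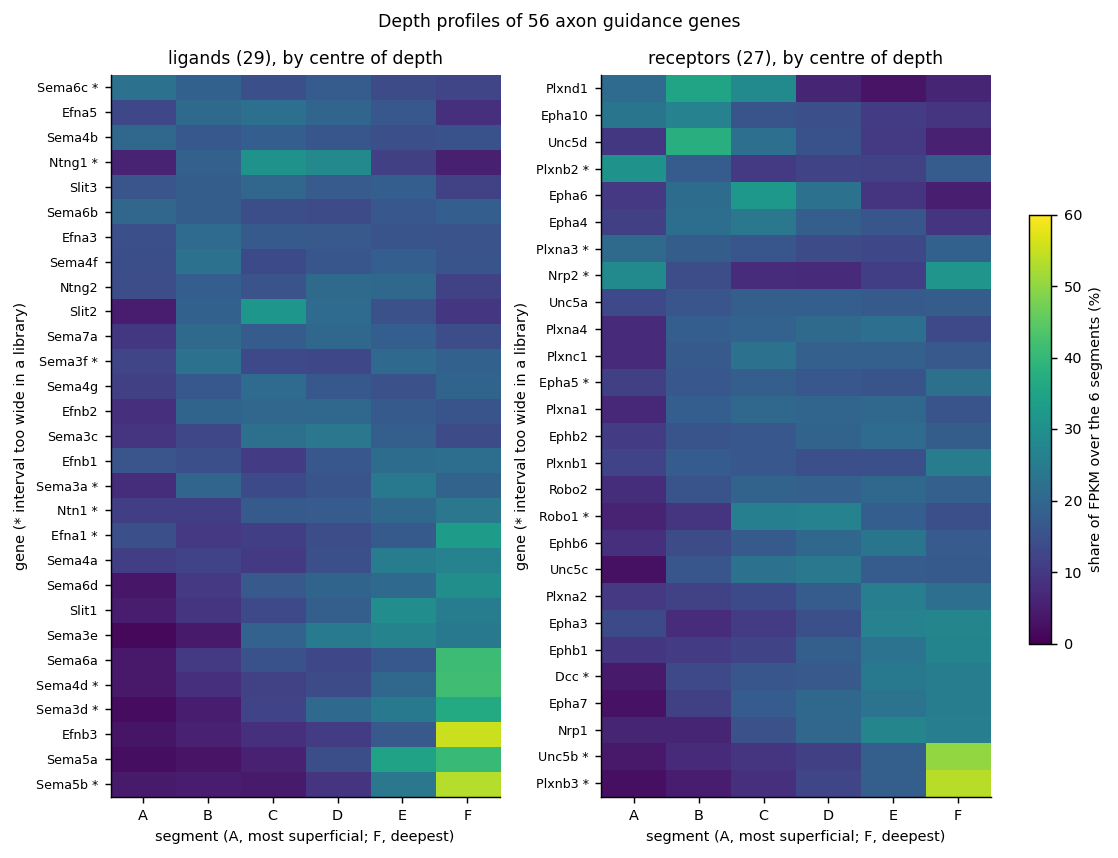
Share of each gene's FPKM (colour, %) in the 6 segments (horizontal axis, superficial to deep) for 29 ligands and 27 receptors, ordered by centre of depth, with an asterisk where the interval was too wide in a library. Plxnd1 and Unc5d are brightest in segment B, and Efnb3, Sema5b, Plxnb3 and Unc5b hold over 50% of their FPKM in F.

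A line was fitted for each gene to log2(FPKM + 0.1) against segment position with limma, and a Benjamini-Hochberg adjusted p under 0.05 over all classifiable genes was called. Only segment B had replicates, so the SE and adjusted p measure the spread of libraries around the fitted trend, not variation between mice. The fit takes the libraries as independent, although the segments came from the same animals. Of the 39 classifiable members 12 rose with depth (16.1% of all classifiable genes did) and 2 fell (2.63% did). Those that rose were 7 of 20 ligands (Sema3e, Sema4a, Sema5a, Sema6a, Sema6d, Efnb3 and Slit1) and 5 of 19 receptors (Plxna2, Nrp1, Epha3, Epha7 and Ephb1), and those that fell were the receptors Plxnd1 and Epha10. The median slope was 0.13 log2 per segment step for the members and 0.09 for all genes. A test of a line and a curve together called 26 of 39 (43.5% of all classifiable genes). Without A 11 members rose (10.2% of genes), 4 fell (2.8%) and 14 passed the test of shape (10.1%). Without E 7 rose (4.03%), 0 fell (0.71%) and 20 passed the test of shape (29.2%), and without F 8 rose (4.98%), 0 fell (0.877%) and 21 passed (32.4%). Of the 26, 12 had no called slope, among them Sema3c, Epha4, Epha6, Efna5 and Slit2, whose segment levels were highest in C or D. Among these 12, the call of shape was lost under the median of ratios for Sema3c, Plxna1, Plxna4, Plxnc1, Ephb6 and Robo2. Under the GC correction it was lost for Sema3c, Plxna4, Plxnc1, Unc5c and Robo2. Losses of shape among members with a called slope are not listed here.

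Over all genes 85.9% of the calls were rises, and with libraries rescaled by the median of ratios 51.8% were, where the median slope of all genes was -0.0023. Under that scale 8 members rose and 2 fell, beside 5.03% and 4.68% of genes, and the test of shape called 17 (33% of genes). Sema5a, Sema6d, Nrp1, Ephb1, Efnb3 and Slit1 were called under all 15 alternatives run, while Epha3 was called under 1 of 14. With every gene that averaged 1 FPKM or more in place of the classifiable ones (called the wider fit), 54 members were tested, of which 17 rose (16.2% of genes) and 2 fell (2.71%), and the test of shape called 35 (43.7%). This fit added Sema4d, Sema5b, Plxnb3, Unc5b, Ntn1 and Dcc to those that rose. Without library F it called 12 rises and 0 falls, beside 5.48% and 1.11% of genes, and 28 in the test of shape (32%).

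**Figure D2:**
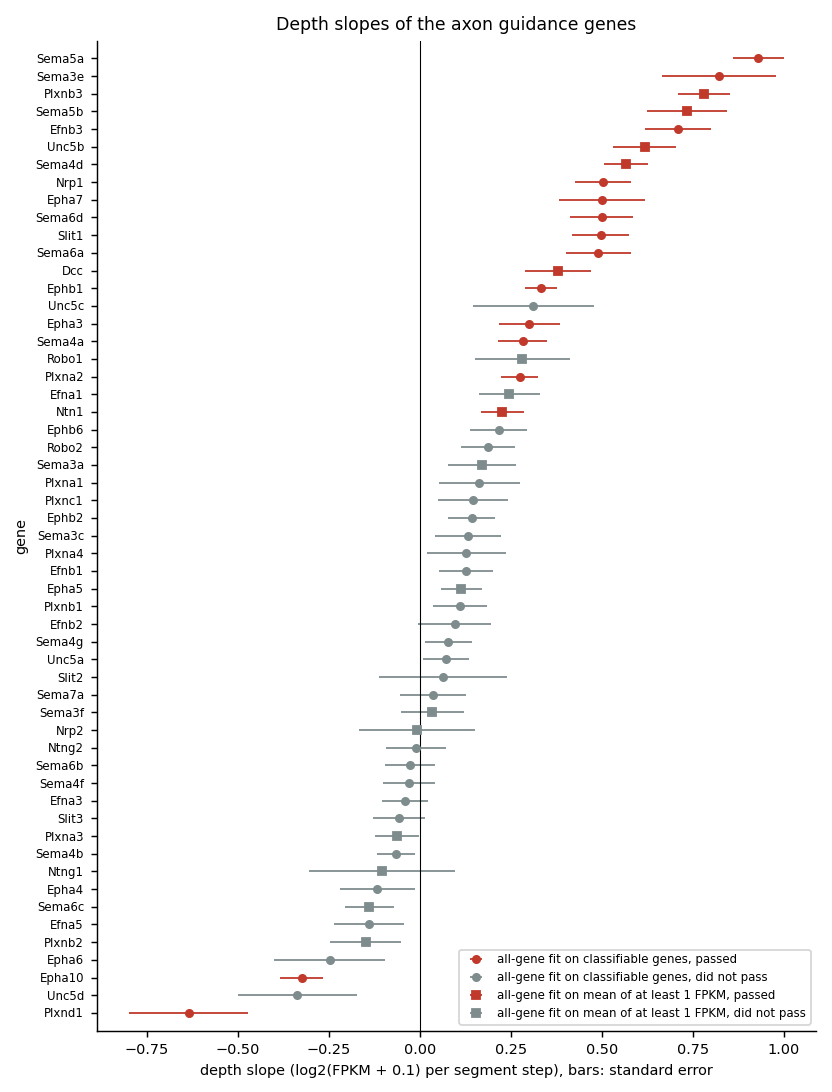
Depth slope (log2(FPKM + 0.1) per segment step, horizontal axis) with its standard error for 55 genes, circles from the fit on classifiable genes and squares from the wider fit. Genes with an adjusted p under 0.05 are red, and these run from Sema5a at 0.93 to Plxnd1 at -0.64.

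Sema3e and its receptor Plxnd1 had the most opposed profiles of all ligand and receptor pairs. Sema3e (ENSMUSG00000063531, chr5:14025276-14256689, mm9), a secreted semaphorin that binds plexin D1 directly, was at 0.512 FPKM in A, 1.84 and 1.68 in B1 and B2, 7.80 and 10.3 in C and D, and 11.1 and 10.1 in E and F. The 4 deep libraries were all above the superficial ones, with an interval of 7.49 to 8.11 in C and of 1.70 to 1.98 in B1. Plxnd1 (ENSMUSG00000030123, chr6:115904829-115945023, mm9) was at 12.02 FPKM in A, 24.1 and 16.2 in B1 and B2, 16.4 and 3.57 in C and D, and 1.85 and 3.60 in E and F. The receptor was thus high from A to C and low from D to F, and only in C were both genes above 5 FPKM. Sema3e had a slope of 0.82 per step (SE 0.16, adjusted p = 0.016, limma), and Plxnd1 of -0.64 (SE 0.16, adjusted p = 0.036). The call for Sema3e was lost without A (adjusted p = 0.054) or E (0.057). That for Plxnd1 was lost under 8 of 15 alternatives, with the highest adjusted p, 0.103, without E. Their centres of depth lay 1.90 segments apart, and 1.93 or 1.86 with B1 or B2 alone. The windows of 250 bases before the RefSeq start sites of Sema3e (chr5:14025026-14025275, plus strand) and Plxnd1 (chr6:115995006-115995255, minus strand) are shown because these genes change in opposite directions between B and D. Those of Nrp1 (chr8:128358823-128359072, plus strand), which increased across the same border as Sema3e, and Sema5a (chr15:32244563-32244812, plus strand), with the steepest slope, are shown for comparison (build GRCm38.p6, 5′ to 3′, with matches to GGGCGG on either strand in capitals).
Sema3e: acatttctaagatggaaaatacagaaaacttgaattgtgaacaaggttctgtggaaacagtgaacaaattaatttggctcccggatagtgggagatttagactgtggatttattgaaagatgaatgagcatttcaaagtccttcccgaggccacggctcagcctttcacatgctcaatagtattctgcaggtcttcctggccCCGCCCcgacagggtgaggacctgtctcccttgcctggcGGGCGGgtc
Plxnd1: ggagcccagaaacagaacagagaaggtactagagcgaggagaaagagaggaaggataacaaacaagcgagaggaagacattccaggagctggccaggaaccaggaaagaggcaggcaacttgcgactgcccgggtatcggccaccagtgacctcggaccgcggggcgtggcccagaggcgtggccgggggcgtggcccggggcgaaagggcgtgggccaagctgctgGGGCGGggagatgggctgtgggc
Nrp1: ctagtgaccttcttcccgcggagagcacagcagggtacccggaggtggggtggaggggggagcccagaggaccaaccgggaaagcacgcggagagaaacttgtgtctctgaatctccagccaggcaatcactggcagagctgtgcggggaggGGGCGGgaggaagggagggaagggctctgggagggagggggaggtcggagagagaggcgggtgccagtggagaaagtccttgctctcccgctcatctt
Sema5a: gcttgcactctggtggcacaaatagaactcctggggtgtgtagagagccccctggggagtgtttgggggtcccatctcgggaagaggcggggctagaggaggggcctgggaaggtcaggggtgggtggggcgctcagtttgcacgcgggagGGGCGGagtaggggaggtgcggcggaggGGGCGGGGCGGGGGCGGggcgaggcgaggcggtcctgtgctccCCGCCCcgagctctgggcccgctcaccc

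The letters GGGCGG, the core of the GC box bound by Sp1, were found 2 times in the window of Sema3e, 1 time in those of Plxnd1 and Nrp1, and 5 times, in part overlapping, in that of Sema5a, and they occur in 32.7% of 32851 windows of the same length. None of the 4 holds TATAAA (12.4% of windows) or TGACGTCA (1.55%), both strands read. The window of Sema3e had 48.0% G or C and 7 CpG, against 64.8% and 16 for Plxnd1, 64.4% and 11 for Nrp1, 72.0% and 17 for Sema5a, and a median of 52.4% and 6 over all windows. RefSeq windows were matched by symbol for 47 of the 56 genes.

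**Figure D3:**
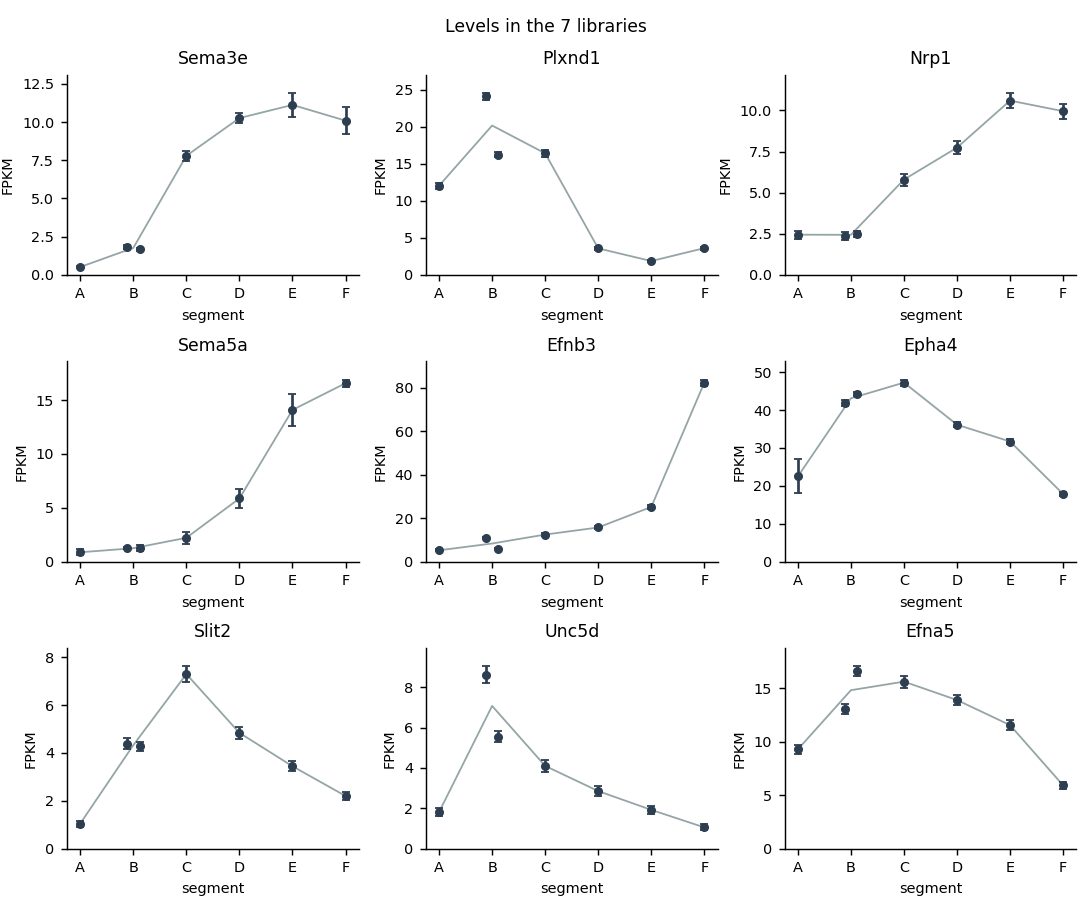
FPKM (vertical axis, from 0) in the 7 libraries by segment for 9 genes, with the deposited 95% interval as bars, B1 left and B2 right of the mark for B, and a line through the segment values. Sema3e and Nrp1 climb between B and C, Plxnd1 drops between C and D, and Slit2, Epha4 and Efna5 are highest in B2 or C.

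Among the other class 3 semaphorins, Sema3c was highest in layer 5, at 2.29 FPKM in A, 3.05 and 3.17 in B1 and B2, 5.42 and 5.82 in C and D, and 4.47 and 3.37 in E and F. The test of shape was passed (adjusted p = 0.013, limma) but not without D (0.055), and its slope was not called. Sema3d, under 1 FPKM on average and not classifiable, was at 0.0791 in A and 1.44 in F. Sema3a, the classical repellent of class 3, was between 2.04 (A) and 6.38 (E), and Sema3f between 1.78 (A) and 3.71 (B1), and neither passed a test. Neuropilin 1, the co-receptor for Sema3a, was at 2.44 FPKM in A, 2.36 and 2.50 in B1 and B2, 5.79 and 7.74 in C and D, and 10.6 and 9.95 in E and F. The intervals of A, B1 and B2 overlapped, and all 4 deeper libraries were higher (slope 0.50, SE 0.08, adjusted p = 0.0080, and a slope of 0.33 with the GC correction). Nrp2, the co-receptor for Sema3f, was highest at both ends, at 2.66 in A and 2.92 in F against 0.666 in D, and passed the test of shape in the wider fit (adjusted p = 0.0036).

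The transmembrane and anchored semaphorins of classes 4 to 7 included the steepest rise of the group. Sema5a was at 0.872 FPKM in A, 1.23 and 1.26 in B1 and B2, 2.22 and 5.87 in C and D, and 14.1 and 16.6 in E and F, a slope of 0.93 (SE 0.07, adjusted p = 0.00068, limma). Both B libraries lay close to A, and layer 6 and 6b held 75.0% of its summed FPKM. Its paralog Sema5b was flat from A to C (1.73 to 1.97 FPKM) and then at 3.79 in D, 9.70 in E and 21.7 in F. It was not classifiable by a narrow margin (50.2%) and rose in the wider fit (0.73, SE 0.11, adjusted p = 0.0066). Sema5b overlaps Gm5963 on the opposite strand, which was at 110 FPKM in A and 14.7 to 22.0 elsewhere, and the sources used here do not say that strand was used in counting. Sema6a was at 1.72 FPKM in A, 4.57 and 3.68 in B1 and B2, 6.19 and 5.29 in C and D, and 6.72 and 16.8 in E and F (slope 0.49, SE 0.09, adjusted p = 0.014). Without F, where it was over 2-fold higher than in any other library, the call was lost (adjusted p = 0.068).

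Sema6d, a transmembrane ligand of plexin A1, was at 2.05 FPKM in A, 5.86 and 5.14 in B1 and B2, 9.39 and 10.8 in C and D, and 11.5 and 16.5 in E and F (slope 0.50, SE 0.09, adjusted p = 0.012, limma). Sema4a was level from A to C, at 12.6, 15.0, 12.02 and 11.4 FPKM, then at 16.4 in D, 28.7 in E and 30.0 in F. Its slope of 0.28 (SE 0.07, adjusted p = 0.031) was not called under 6 of 15 alternatives. It fell to 0.18 with the median of ratios (adjusted p = 0.160), while the adjusted p was 0.102 without E, 0.0992 without F, 0.0583 without D, 0.0657 without B2 and 0.0757 without mitochondrial genes. Sema4d rose in the wider fit, from 2.63 in A to 26.0 in F (0.57, SE 0.06, adjusted p = 0.0020). Sema7a, a lipid-anchored semaphorin and the most abundant member, ranged from 46.4 in A to 119 in B1. B1 was higher than every other library and B2 (77.9) lay below C, D and E, so that the replicates spanned most of its range. Sema4b, Sema4f, Sema4g, Sema6b and Sema6c passed neither test, with a ratio of highest to lowest segment of 1.37 to 1.86.

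Among the plexins the changes differed in direction. Plxna2, a receptor for Sema6a, was at 8.80 FPKM in A, 9.43 and 11.0 in B1 and B2, 12.03 and 15.4 in C and D, and 22.7 and 19.5 in E and F (slope 0.27, SE 0.05, adjusted p = 0.015, limma), and the call was lost without E (0.055), under the median of ratios (slope 0.17, adjusted p = 0.074) and under the GC correction (0.16, 0.075). Plxna1, Plxna4 and Plxnc1, the last a receptor for Sema7a, were lowest in A (3.57, 3.86 and 1.40 FPKM). Plxna1 was highest in B1 (12.2, against 6.93 in B2 and 10.9 in E), Plxna4 reached 11.8 in E and Plxnc1 4.48 in C. They passed the test of shape (adjusted p = 0.043, 0.023 and 0.028), which without A gave 0.653, 0.340 and 0.482, and for Plxna1 the call held under 5 of 15 alternatives. Plxnb3, a receptor for Sema5a, was at 0.525 in A, 1.27 and 0.764 in B1 and B2, 1.80 and 2.73 in C and D, and 3.95 and 11.6 in E and F, and rose in the wider fit (0.78, SE 0.07, adjusted p = 0.0013). The Sema4d receptor Plxnb1 was highest in F (12.1) and B1 (10.3) and passed neither test. Plxnb2 was highest in A (13.4, against 4.50 in C), the library with the highest summed leptomeningeal markers, and its test of shape (adjusted p = 0.0095) was lost without A (0.116). Its transcripts differed, however. That of 6325 nt, the only classifiable one, was lowest in A (2.81 FPKM) and highest in F (7.67). A transcript of 841 nt was at 8.44 in A and 0 in F. Plxna3 was at 1.54 (E) to 2.46 (A) and passed neither test. Its transcript of 6943 nt was at 0.501 in A and 2.21 in F, and one of 984 nt was at 1.41 in A and 0 in F.

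The ephrin with the largest range was Efnb3, a transmembrane ligand known as a midline barrier to corticospinal axons. It was at 5.23 FPKM in A, 10.7 and 5.97 in B1 and B2, 12.5 and 15.7 in C and D, and 25.2 and 82.3 in E and F, so that 55.2% of its summed FPKM lay in F. The slope was 0.71 (SE 0.09, adjusted p = 0.0039, limma), and 0.54 without F in the wider fit (adjusted p = 0.027). Efna5, an anchored ligand of EphA receptors, was at 9.27 in A, 13.03 and 16.6 in B1 and B2, 15.6 and 13.9 in C and D, and 11.5 and 5.91 in E and F. It was lowest in F and passed the test of shape (adjusted p = 0.0081), though not without F (0.120). Efnb1 (1.87 to 3.89), Efnb2 (4.48 to 13.2) and Efna3 (14.6 to 25.4) passed neither test. Efna1 was highest in F, at 3.22 against 0.869 to 1.65 elsewhere, and passed the test of shape in the wider fit (adjusted p = 0.0072) but not without F (0.145).

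The Eph receptors differed among themselves in the order of the segments. Epha4, which binds ephrins of both classes, was at 22.5 FPKM in A, 41.9 and 44.3 in B1 and B2, 47.3 and 36.1 in C and D, and 31.7 and 17.8 in E and F. The middle segments were highest and both ends lowest (shape, adjusted p = 0.0097, limma, and 0.068 without F). Epha6 was highest in C (2.88) and lowest in F (0.445), with 0.907 in A, 2.12 in B1, 1.69 in B2, 2.04 in D and 0.830 in E (shape, adjusted p = 0.0050). Gm4660, at a mean of 1.19 FPKM, overlaps Epha6 on the same strand, and the part of this was not tested. Epha7 was at 2.94 in A, 11.9 and 11.1 in B1 and B2, 17.7 and 20.6 in C and D, and 23.3 and 25.6 in E and F (slope 0.50, SE 0.12, adjusted p = 0.030). Its only classifiable transcript, of 2880 nt, was highest in E (8.62 FPKM) and lower in F (4.18). Another of 2323 nt was at 5.40 in E and 10.3 in F. The call for Epha7 was lost without B2, D, E or F (adjusted p of 0.0545, 0.0634, 0.0831 and 0.0554), where the slope was 0.49 to 0.63. It was also lost with the median of ratios (slope 0.40, adjusted p = 0.0504) and without mitochondrial genes (0.45, 0.068). Without A the slope was 0.29 and with the GC correction 0.32, and both were called.

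Ephb1 rose steadily, from 8.31 FPKM in A, 9.01 in B1 and 9.14 in B2 to 10.7 and 15.8 in C and D, and 20.1 and 23.6 in E and F (slope 0.33, SE 0.04, adjusted p = 0.0047, limma). Epha10, a receptor whose kinase domain is regarded as inactive, fell, at 10.9 in A, 14.2 and 10.8 in B1 and B2, 7.34 and 6.83 in C and D, and 5.02 and 4.26 in E and F (-0.32, SE 0.06, adjusted p = 0.014). A, B1 and B2 were all above the 4 deeper libraries, and the call was lost without E or F (adjusted p = 0.057 for both). Ephb6, also without an active kinase, was between 25.1 in A and 70.7 in E (shape, adjusted p = 0.023, and 0.245 without A). Epha3 was low throughout, from 0.311 in B1 to 1.22 in F, and its slope of 0.30 (adjusted p = 0.044) was lost in nearly every alternative. Ephb2 (3.45 to 6.99) and Epha5 (10.4 to 20.1, with intervals as wide as 0.480 to 29.3 in D) passed neither test.

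The Slit genes, which encode secreted ligands of Robo, differed from one another. Slit1 was at 1.89 FPKM in A, 4.93 and 2.93 in B1 and B2, 5.54 and 7.70 in C and D, and 12.4 and 10.7 in E and F, and rose (slope 0.50, SE 0.08, adjusted p = 0.0089, limma). Slit2 was highest in C, at 7.30, with 1.05 in A, 4.38 in B1, 4.27 in B2, 4.84 in D, 3.44 in E and 2.20 in F (shape, adjusted p = 0.010, and 0.059 without A). Slit3 was between 2.89 in F and 5.47 in B1 and passed neither test. Their receptor Robo2 was at 10.04 in A and 19.0 to 25.8 in the others (shape, adjusted p = 0.015, and 0.243 without A). Robo1 was at 4.99 in C and 5.12 in D against 1.09 in A, but its intervals reached 0 in B2, C and F (shape, adjusted p = 0.011 in the wider fit, and 0.057 without A).

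Netrin 1 was scarce, at 0.640 (B2) to 1.77 FPKM (F), and its receptor Dcc ran from 0.475 in A to 2.74 in F. Both slopes (0.23 and 0.38, adjusted p = 0.037 and 0.030, limma, wider fit) were lost without A (slopes 0.25 and 0.25, adjusted p = 0.0504 and 0.054), without F (0.23 and 0.45, 0.10 and 0.064) and with the median of ratios (0.13 and 0.29, 0.175 and 0.065). The Unc5 receptors had distinct profiles. Unc5d was highest in layer 4, at 8.62 in B1 and 5.54 in B2, with 1.81 in A, 4.10 and 2.85 in C and D, and 1.92 and 1.05 in E and F. Both B libraries were above all others, and B1 and B2 differed by more than their intervals. The test of shape was passed (adjusted p = 0.040), but only under 7 of 15 alternatives, and not without B2, C, D, E or F (0.095, 0.075, 0.051, 0.080 and 0.124). Unc5c was at 0.6001 in A, 3.61 and 3.36 in B1 and B2, 4.91 and 5.18 in C and D, and 3.76 and 3.70 in E and F (shape, adjusted p = 0.013, and 0.218 without A). A gene of unknown strand overlaps Unc5c at a mean of 2.02 FPKM, and the part of this was not tested. Unc5b was at 1.80 in A, 3.96 and 2.20 in B1 and B2, 3.97 and 4.86 in C and D, and 7.81 and 21.7 in E and F (0.62, SE 0.09, adjusted p = 0.0053), while Unc5a, at 17.9 (B2) to 31.1 (B1), passed neither test.

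The netrin-G genes encode lipid-anchored ligands of synaptic proteins. Ntng1 was highest in layer 5, at 12.4 FPKM in C and 11.4 in D, with 2.34 in A, 8.29 in B1, 6.65 in B2, 4.58 in E and 2.12 in F (shape, adjusted p = 0.0036, limma, wider fit). Ntng2 was at 12.3 in A, 19.7 and 11.2 in B1 and B2, 13.3 and 18.01 in C and D, and 17.4 and 10.2 in E and F, a range that B1 and B2 nearly spanned between them, and passed neither test.

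Single borders between segments were compared with the replicate spread, since 5 of 6 segments had 1 library. For 95% of classifiable genes B1 and B2 differed by less than 2.11-fold, and a step between neighbouring segments was counted past this fold, with no test. From A to B 12 of 39 classifiable members were higher past it (13.1% of classifiable genes) and 0 were lower (6.28%). The 12 were Sema3e, Sema6a, Sema6d, Sema7a, Plxna1, Plxna4, Plxnc1, Epha7, Efnb2, Slit2, Unc5c and Unc5d. With the median of ratios, with the GC correction or with B2 alone, 7 members passed. The share of all genes under these settings is not given here. From B to C Sema3e and Nrp1 were higher (1.57% of genes) and 0 members were lower (1.3%). Sema5a was higher and Plxnd1 lower from C to D (0.771% and 0.763%). From D to E Sema5a was higher again (0.78%) and Epha6 lower (1.03%). Sema6a and Efnb3 were higher from E to F (2.68%) and 0 members were lower (1.24%). Of the members with wide intervals, Sema3a, Ntng1 and Dcc were higher past the fold from A to B, Robo1 from B to C and Sema5b from D to E. From E to F Sema5b, Plxnb3, Nrp2 and Unc5b were higher. Ntng1 was lower from D to E and again from E to F. The fold and the shares above come from classifiable genes. The share of all genes with wide intervals that passed it is not given here.

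Ligands were set against their receptors in 49 pairs taken from general knowledge of the families. Lrrc4c and Lrrc4, the receptors paired with Ntng1 and Ntng2, are not among the 56 genes. The pairs share genes and are not independent, so that no test was made. The ligand had the deeper centre in 30 pairs and the receptor in 19, and among 26 pairs of classifiable genes in 15 and 11. In 11 pairs both genes were highest in the same segment, and 9 lay over 1 segment apart, all with the ligand deeper. Each of the 9 held Plxnd1, Sema5a, Sema5b or Efnb3. Of the 9, Sema5b and Plxna3 (1.67), Sema5a and Plxna3 (1.61) and Sema5b and Plxna1 (1.28) held a gene that was not classifiable. The transcript of Plxna3 of 984 nt gave 1.41 of the gene's 2.46 FPKM in A, and its transcript of 6943 nt was highest in F. Centres were not computed by transcript, so the distance of Plxna3 from Sema5a and Sema5b rests on the gene's summed level. Ligands and receptors that are not partners were not compared, so that these counts have no background. After Sema3e and Plxnd1, the classifiable pairs farthest apart were Efnb3 and Epha4 (1.64) and Sema4a and Plxnd1 (1.56). In both the receptor was highest in B or C and the ligand in F.

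The classifiable pairs nearest in centre were Efnb1 and Ephb2 (a difference of -0.0002), Efna5 and Epha4 (-0.03) and Efna3 and Epha4 (0.11). The shared part of a pair is the smaller of its genes' shares in each segment, summed over segments. It was not computed for genes that are not partners. Efna5 and Epha4 shared 96.6% of their profiles, the most of the classifiable pairs. Sema7a and Plxnc1 (91.9%) and Efnb2 and Ephb2 (91.8%) followed, while Efnb1 and Ephb2 shared 90.1%. Efna5 and Epha4 were both highest in B and C and lowest in F. Sema3e and Plxnd1 shared 39.9%, against a median of 81.6% over the pairs. The same ligand could thus be near to one receptor and far from another, as the centre of Epha7 was 0.95 deeper than that of Efna5. Sema5a and Plxnb3 were close in centre (-0.03), although Plxnb3 had 53.7% of its FPKM in F and Sema5a 40.5%. Netrin 1 was 0.995 deeper than Unc5d, and Unc5b was 0.88 deeper than netrin 1.

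**Figure D4:**
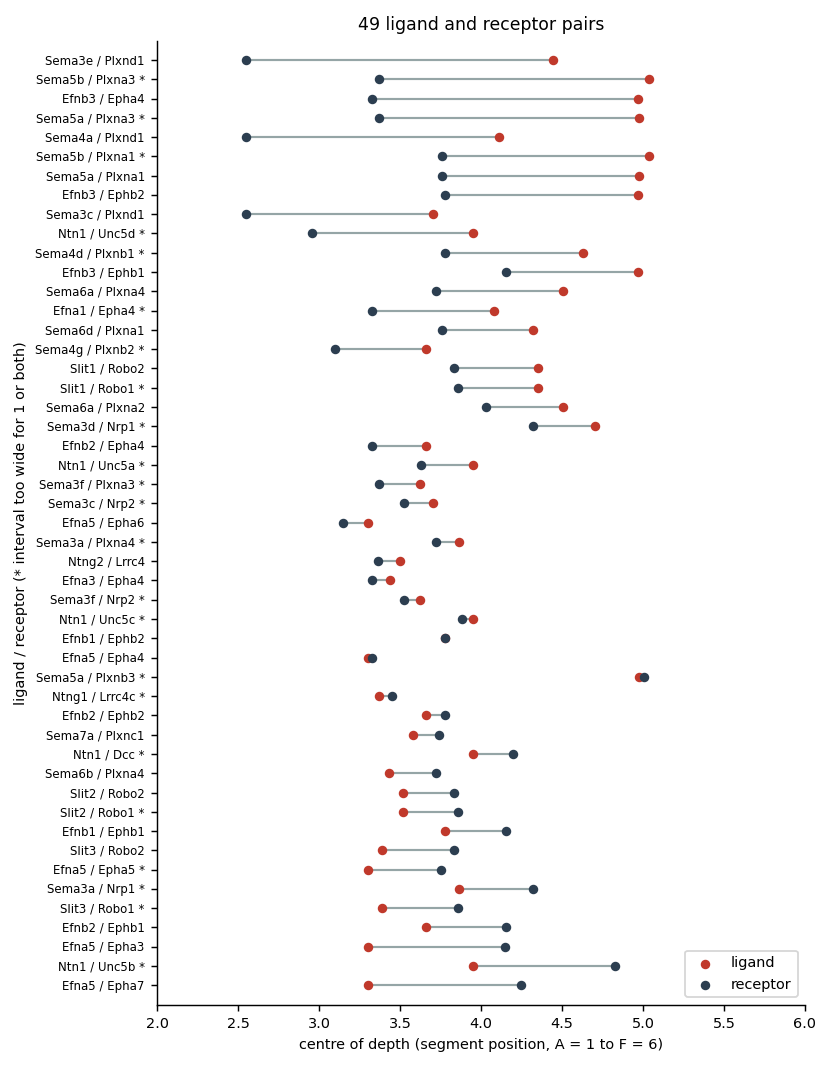
Centre of depth (horizontal axis, A = 1 to F = 6) of the ligand (red) and receptor (dark) in 49 pairs, ordered by their difference, with an asterisk where the interval of a gene was too wide in a library. Sema3e and Plxnd1 at the top are 1.90 segments apart with the ligand deeper, and Efna5 and Epha7 at the bottom are 0.95 apart with the receptor deeper.

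Several members high in F were compared with the markers of oligodendrocytes, the myelin-forming cells. All 7 markers rose with depth, and they (Mbp, Mobp, Mog, Mag, Cnp, Cldn11 and Opalin) each had 53.5% to 59.0% of their FPKM in F and 16.2% to 19.8% in E. Efnb3 had 55.2% in F, Plxnb3 53.7%, Sema5b 53.4%, Unc5b 50.2%, Sema4d 41.7% and Sema6a 41.2%. Sema6a had 10.1% in B and 15.1% in C, where the markers had 3.13% to 5.15% and 7.01% to 9.57%. Sema5b had 23.9% in E, above the marker range, while Efnb3 (16.9%) and Plxnb3 (18.3%) lay within it there. Precursor markers also rose (4 of 4, summed FPKM 17.1 in A and 169 in F), as did 3 of 4 microglial and 1 of 6 astrocytic markers. The summed astrocytic markers were nonetheless highest in F, at 630 FPKM against 289 to 470 elsewhere. Of these, Gfap was at 126 in F against 4.42 to 34.4 elsewhere, while Aldh1l1 and Slc1a3 were highest in B. Markers of layer 6b neurons were highest in F as well (Nxph4 6.20 in E and 41.3 in F), and the summed striatal markers were 42.1 in F against 10.8 to 27.7 elsewhere. The part of these cells in the levels of the guidance genes was not tested. Of the same genes Efnb3, Plxnb3, Sema4d, Sema5b and Unc5b rose without F too in the wider fit, with adjusted p = 0.027, 0.014, 0.023, 0.0495 and 0.040 (limma). Sema6a was not called in that fit (0.070). The summed oligodendrocyte markers also rose outside F, from 261 FPKM in A to 3243 in E. Endothelial markers (0 of 3 called) and interneuron markers (0 rose and 1 fell of 5) did not follow this course, and of 4 neuronal markers 1 rose and 1 fell.

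**Figure D5:**
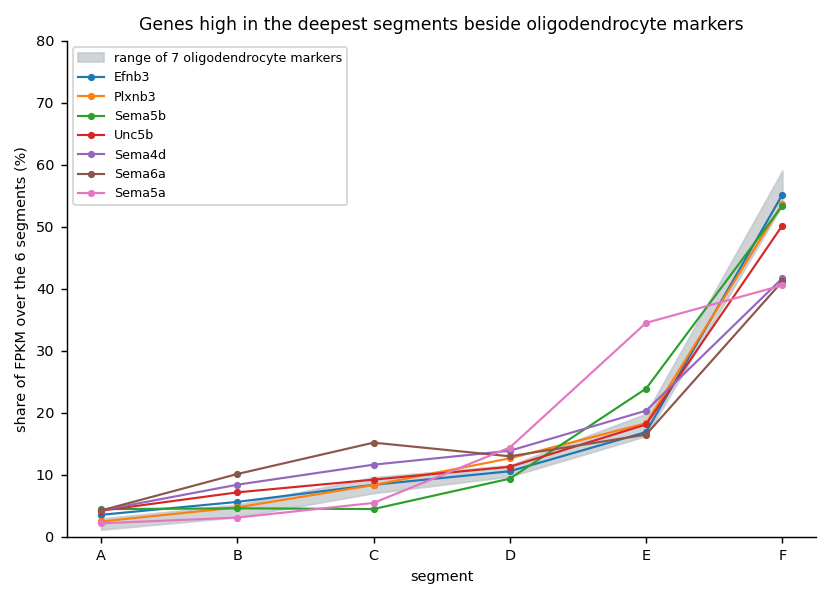
Share of FPKM (%, vertical axis) in the 6 segments for 7 genes (lines) and the range of 7 oligodendrocyte markers (grey). Efnb3 and Plxnb3 lie in or near the grey band throughout, while Sema5a is above it in E, at the level of 34.5%, and below it in F.

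The replicates of layer 4 set the limits of these comparisons. Of the 56 genes, 17 of them not classifiable, 47 were higher in B1 than in B2, whereas 50.2% of all classifiable genes were. The 9 higher in B2 (Sema3c, Sema5a, Plxna2, Nrp1, Epha3, Epha4, Ephb1, Efna1 and Efna5) had a median GC content of 45.6% in their transcripts, against 56.1% in the other 47. The part of base composition in the difference was not tested beyond the GC correction. The share of mitochondrial transcripts was 7.76% in B1 and 18.2% in B2, and its part in the difference was not tested. For 24 of 39 classifiable members (66.4% of classifiable genes) the intervals in B1 and in B2 were apart, and 0 members differed past the 2.11-fold limit. The median absolute log2 ratio was 0.35 for members and 0.29 for all.

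Isoforms could be followed in few of these genes. Of the 51 genes whose transcripts could be assigned, Epha10 was the only one with more than 1 classifiable transcript. Its longer transcript (4660 nt) was lower in A (7.68 FPKM) than in B1 (11.9) and B2 (8.66), while the shorter (2544 nt) was higher in A (3.25) than in B1 (2.32) and B2 (2.10), each by intervals that did not overlap. The shorter transcript thus held 29.7% of the gene's FPKM in A and 12.4% in F. Such opposite changes in at least 1 pair of libraries were found in 82.1% of 1559 genes with 2 or more classifiable transcripts, and between B1 and B2 in 38.1%.

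Other genes of the pathways were read from lists written from general knowledge. Of 30 further family members and binding partners 29 were found and 21 were classifiable, of which 5 rose and 3 fell (16.1% and 2.63% of all classifiable genes did). Chl1, an adhesion molecule that binds neuropilin 1, rose from 5.59 FPKM in A to 26.7 in F (slope 0.42, SE 0.05, adjusted p = 0.0030, limma), as did Cntn2 (0.40), Neo1 (0.31), Rgma (0.22) and Efna2 (0.20). Robo3 fell from 7.55 in A to 1.24 in F (-0.42, SE 0.12, adjusted p = 0.049), as did Epha8 (-0.42) and Sema3g (-0.28). Of 39 intracellular effectors 34 were classifiable, of which 6 rose (Dock1, Dpysl3, Nck2, Rhoa, Rac1 and Fyn) and Mical3 fell, near the same shares of all genes. The median slope was 0.03 for the partners and 0.12 for the effectors, against 0.09 for all genes.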

How the data were processed

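RNA of the S1 segments was sequenced as paired ends. Per the submitters' processing notes TopHat 1.0.13 and Cufflinks 0.8.3 were used with mm9, and models were those of Ensembl release 57. The FPKM that the authors deposited for genes and transcripts carry 95% intervals. The fraction that the authors deposited for transcripts is the share within the locus, and their deposited coverage is not scaled for depth; coverage over FPKM, with mapped ends of 50 nt, gave the estimated depth (31.3 to 74.9 M fragments). These intervals cover counting and assignment error within a library only. Genes listed at 2 places were summed (7 to 13 per library), and genes without a line were set to 0. Symbols, GC content and biotypes were matched by identifier.

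limma 3.58.1 (R 4.3.3) was fitted to log2(FPKM + 0.1) with segment position, 5 residual degrees of freedom for the line, and Benjamini-Hochberg adjustment over all genes fitted. Its SE and p rest on the spread of the libraries around the fitted line or curve. Slopes understate the change of genes near the pseudocount. The code was tested on simulated data. The wider fit took every gene that averaged 1 FPKM or more over the libraries. A share is the FPKM of a segment over the sum of the 6, where B1 and B2 were averaged. Every member may be named; values in each library were given for the 2 classifiable genes of each family with the largest ratio of highest to lowest segment, for called genes with a ratio of at least 4, and for the 3 most and 3 least distant pairs, and for other genes chosen after their values were seen. The members and lists were chosen with earlier results of these data known. Promoter windows are from RefSeq (GRCm38.p6), read by symbol. Alternatives (48 planned, 3 added) varied pseudocount, filters, scale, GC content and libraries. A gene of the marker lists is not reported here and was left out of its list. De novo models and the 12 samples of dorsal and lateral cortex were not analysed here.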

Additional observations from a re-analysis of the deposited data

How the results depend on the processing

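Of the 20 members with a called slope, 10 were called under every alternative run, and 0 changed sign. Of the 10, Sema5a, Sema6d, Nrp1, Ephb1, Efnb3 and Slit1 were run under 15 alternatives. Sema4d, Sema5b, Plxnb3 and Unc5b, which were not classifiable, were run under only 4, without the GC correction. The count of rising members (12) was 7 to 11 when a library was left out and that of falling members (2) 0 to 4, with 4 without A, 0 without E or F, and 1 without D, B1 or B2. It was 1 with no filter on low values and 1 with B1 and B2 averaged. Of all classifiable genes 16.1% rose, and 10.2% without A, 4.03% without E and 4.98% without F. Falls were 2.63% of them, and 2.8% without A, 0.71% without E and 0.877% without F. In the wider fit, whose alternatives were chosen after seeing the data, the falls (2) were 0 without F and 4 without A. Of all genes in that fit 2.71% fell, and 1.11% without F and 2.92% without A. On classifiable genes the test of shape called 26 members (43.5% of genes), 17 with the median of ratios (33%) and 18 with the GC correction. It called 14 to 28 with a library left out, the lowest without A (10.1%). The share of all genes called in slope or shape is not given here for the GC correction or without C, D, B1 or B2. Nor is it given with no filter on low values or with B1 and B2 averaged. The counts of members under these settings thus have no background. Rises made up 85.9% of all calls, 51.8% with the median of ratios, 55.2% with the GC correction and 65.2% without mitochondrial genes. Steps from A to B (12) were 7 with the median of ratios, 7 with the GC correction and 7 without B1, and steps from B to C (2) were 1 with the median of ratios. The share of all genes past the fold is not given for these settings. With a limit of 25% on interval width 23 members were classifiable, and 39 with 50%. The ligand was deeper in 29 to 32 of 49 pairs. The difference between Sema3e and Plxnd1 was 1.74 with the GC correction and 1.99 with the median of ratios. The cause of these changes was not tested. Fits that leave a library out also have fewer samples, and the part of this was not tested either. The median interval of classifiable genes spanned 16.8% of the FPKM in A, the shallowest library, and 10.8% in B2, the deepest. No paired analysis was possible because only segment B has replicate numbers and the other segments have 1 library each.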
